A study of Mus musculus with 12 samples.

Results

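The Hippo pathway genes described here are Yap1, Wwtr1, Tead1, Tead2, Tead4, Lats2, Stk3, Sav1, Nf2 and Amotl2, that is, pathway genes apart from the kinase Lats1. Members were all probes of an Illumina mouse bead array whose platform gene symbol was one of these 10 names, which gave 17 of the 45281 probes and 9 of the 19057 gene symbols on the array. Of the 10 genes, Stk3, one of the upstream kinases, is not analysed here. Of the 17 probes, 11 were bright enough to be tested, and these represented 7 genes. The 6 others, which included all probes of Lats2 and Nf2, were detected on 0 of 12 arrays.

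Each array held RNA of 1 C57BL6/J embryo, whole and taken at 8.5 days post coitum, after removal of the yolk sac and allantois. All mothers and fathers were heterozygous for Cited2, so every embryo, wild-type ones included, developed in a heterozygous mother. Mothers were switched at 6 weeks of age to a high-fat or a control diet, were mated after 8 weeks on it and stayed on it while pregnant. Embryos formed 4 groups of 3: wild type (Wildtype) with the Control maternal diet, wild type with the High fat maternal diet, and Cited2 -/- with each of these diets, the last 2 called knockout here. A whole embryo pools all its cell types, so less RNA per cell and fewer cells of a type cannot be told apart in any of the values below. Neither sex nor litter is given.

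The Hippo pathway is a kinase cascade that restrains growth. In mammals the kinase STK3, held by its adaptor SAV1 and helped by the membrane-linked protein NF2, activates the kinases LATS1 and LATS2, which phosphorylate the co-activators YAP1 and WWTR1 (also called TAZ) and keep them out of the nucleus. Unphosphorylated YAP1 and WWTR1 bind DNA through the TEAD transcription factors, and AMOTL2 is a junction protein that holds YAP1 in the cytoplasm and whose gene is itself a known YAP1 target. Transcript levels, which were measured here, do not report phosphorylation.

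TEAD proteins are known to bind the letters GGAATG, so the promoters of the members were searched for them. The search covered both strands (GGAATG or its reverse complement CATTCC) from 250 bases before to 50 bases after each RefSeq transcription start for which a window was at hand (GRCm38.p6). Promoter windows were at hand for 7 members, and 5 of these held a match, as did 16.6% of all 27025 genes with a window. In the list of other pathway genes used below, 11 of the 35 genes with a window held a match (31.4%). Among the listed YAP1 and WWTR1 targets, 5 of 13 did (38.5%). Counted by window, 6 of 10 member windows held one, against 14.7% of 32851 windows. Tead2 and Nf2 had windows without the letters, as did 1 of the 2 windows of Lats2. A match of this length is a description of the sequence and not a bound site. The annotated Sav1 gene reaches to base 69988141 and Amotl2 begins at base 102717091. Their matches therefore lie inside the annotated genes, before a start that is not the outermost end. The matches are shown with 10 bases on each side, 5′ to 3′ on the gene's strand, with the 6 matching letters in capitals, because they show where these letters lie at the genes of the pathway itself.
Yap1 (chr9:8004722-8004747, minus strand, 141 bases before the start): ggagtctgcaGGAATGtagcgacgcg
Wwtr1 (chr3:57576031-57576056, minus strand, 136 or 170 bases before its 2 starts): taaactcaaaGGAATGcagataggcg
Sav1 (chr12:69987093-69987118, minus strand, 106 bases before the start): gctttcccagCATTCCcagcggcgcg
Amotl2 (chr9:102717729-102717754, plus strand, 65 bases before the start): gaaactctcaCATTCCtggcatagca
Lats2 (chr14:57746104-57746129, minus strand, beginning at base 5 of the transcript): tgacgcccgtGGAATGccaacaatgt

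Between 16584 and 18853 probes were detected per array, at a detection p-value under 0.01. The arrays were split into 2 sets of 6 by how much the beads of a probe varied, the median coefficient of variation being 18.0% to 20.5% for set A and 21.4% to 23.8% for set B. The cut lay at the largest gap, 0.97 percentage points, and the second largest was 0.88, so the bead variation by itself marks no sharp boundary. Set A comprised every replicate 1, together with replicate 2 of the wild-type and knockout high-fat groups, so each set held 3 knockout embryos, but 4 high-fat embryos were in set A and 2 in set B. Each control-diet group thus had 1 embryo in set A, and each high-fat group 1 embryo in set B. Every value given below within a set therefore rests in part on groups of 1 embryo. Cited2 itself separated the genotypes at its brightest probe, with log2 signals of 10.94 to 11.90 in wild-type and 4.38 to 6.85 in knockout embryos. The 6.85 belonged to knockout high-fat replicate 3, the other knockout embryos reaching at most 4.79. In this 1 knockout embryo the probe was detected (raw signal 119.7), as was a second Cited2 probe (ILMN_2683980, raw signal 31.2). The third (ILMN_2905866) was detected in 0 of 6 knockout embryos. The source of this Cited2 signal was not tested. Of 10 embryo markers, 8 were measured, 7 of them on 12 of 12 arrays, and knockout minus wild-type differences were positive at 3 and negative at 5, with a median of −0.28. One of these passed, Meox1, a somite gene, which was lower in knockout embryos (limma, adjusted p = 0.0211). The 2 measured markers of maternal decidua and blood, of 6 on that list, had a median difference of 0.97, with 0 passing in limma and 1 at an unadjusted p under 0.05, and the 2 measured trophoblast markers, also of 6, had 0.62. Of 10 markers of the yolk sac's visceral endoderm, 7 were measured, all with a positive difference (median 0.98, 0 passing in limma and 0 at an unadjusted p under 0.05), and their summed signal ranged from 1574.3 to 13517.9 in wild-type and from 3384.4 to 32793.7 in knockout embryos. The sum of 32793.7 was that of knockout high-fat replicate 3, the embryo with detected Cited2. It also had the highest summed signal of the 12 embryos for the trophoblast markers (1125.2) and for those of maternal decidua and blood (3823.5). The part of these markers in the values of the members and of Lats1 was not tested.

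The first comparison asked whether the pathway moved where Lats1 signal was higher, that is, in knockout embryos. At the one tested Lats1 probe (ILMN_2430229), log2 signals were 4.57, 4.64 and 4.74 in wild-type control-diet replicates 1 to 3 and 4.66, 4.62 and 4.78 in the wild-type high-fat replicates. They were 6.13, 5.97 and 5.84 in knockout control-diet replicates 1 to 3 and 6.23, 5.43 and 5.91 in the knockout high-fat replicates. Every knockout embryo lay above every wild-type embryo, and the probe was detected in 6 of 6 knockout and 0 of 6 wild-type embryos. The probe passed the filter on dim probes through the knockout arrays alone, so its wild-type level is a bound. Means were 5.92 ± 0.28 in knockout and 4.67 ± 0.08 in wild-type embryos (log2, SD, n = 6). The knockout mean was at least 1.64-fold higher, or 0.71 on the log2 scale, than the lowest detected signal of the wild-type arrays, a bound that was not tested. The limma p (adjusted p = 0.00184) belongs instead to the fitted difference of 1.25 against undetected wild-type signals. Since the knockout arrays alone brought the probe into the fit, that p is no independent support for the difference. The other Lats1 probe (ILMN_1248249) was detected on 1 of 12 arrays, wild-type control-diet replicate 1, and ranged from 4.54 to 5.26 in wild-type and from 4.51 to 5.07 in knockout embryos, so it was not tested and did not show the same separation.

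None of the 11 member probes passed in this comparison (limma, adjusted p under 0.05 over 19595 tested probes), where 0.0714% of all tested probes did. An unadjusted p under 0.05 was likewise found for 0 of the 11, against 656 of all tested probes. With the array set as a block 0 of the 11 passed too, where 0.138% of all tested probes did. Knockout minus wild-type differences averaged over diets ran from −0.13 to 0.09 on the log2 scale, 4 positive and 7 negative. The median absolute difference was 0.06 at the member probes and 0.07 over all tested probes. At the brightest probe of each of the 7 genes, the 95% intervals lay between −0.40 and 0.33. At the second probes of Wwtr1 and Tead1 they were wider, reaching from −0.77 to 0.62. Among the tested genes with GGAATG or CATTCC in their promoter, shown above, the lead differences were 0.09 for Yap1, −0.06 for Wwtr1, −0.13 for Sav1 and 0.05 for Amotl2, beside 0.04 for Tead2, which had no match. The 6 knockout and 6 wild-type embryos overlapped at all 11 probes, as they did at most probes of the array (0.25% of tested probes did not overlap).

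**Figure D1:**
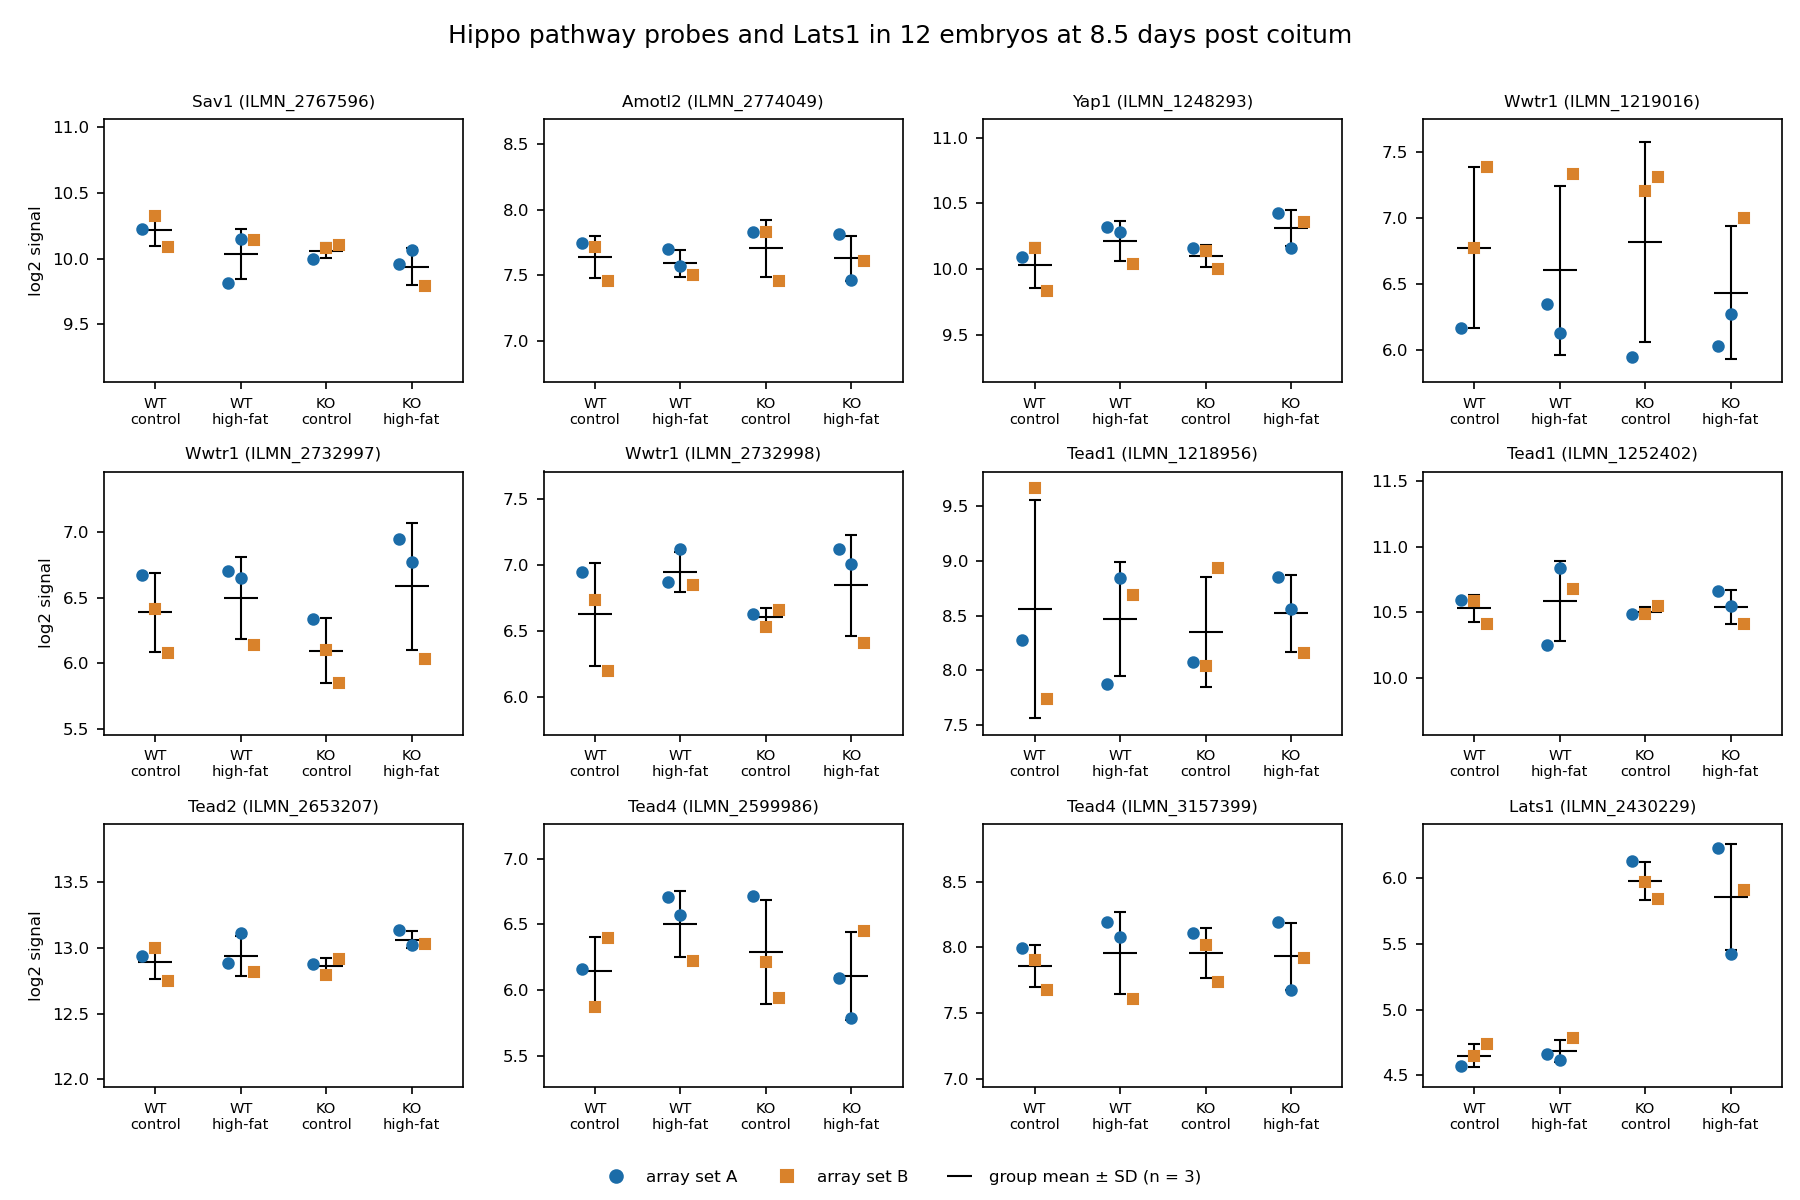
Log2 signal (y axis) of the 11 tested member probes and of Lats1 in 12 embryos, by group of genotype (WT wild type, KO knockout) and maternal diet. Points are embryos, coloured and shaped by array set, with bars for the group mean ± SD (n = 3); each panel spans at least 2 log2 units, and Lats1 is the one panel in which the knockout and wild-type embryos do not overlap.

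Among the upstream members, Sav1, the scaffold of the STK3 kinase, was measured at 1 probe (ILMN_2767596). Its log2 signals were 10.23, 10.33 and 10.09 in wild-type control-diet replicates 1 to 3 and 9.81, 10.15 and 10.14 in the wild-type high-fat replicates. In knockout embryos they were 9.998, 10.08 and 10.10 under the control diet and 9.96, 10.07 and 9.79 under the high-fat diet. The highest value was that of a wild-type and the lowest that of a knockout embryo, while the groups overlapped. Sav1 had the largest absolute genotype difference of the 11 member probes, −0.13 ± 0.10 (SE; 95% interval −0.34 to 0.09; limma, unadjusted p = 0.219, adjusted p = 1.00), with −0.10 within array set A and −0.23 within set B.

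Amotl2, which holds YAP1 at cell junctions, was also measured at 1 probe (ILMN_2774049). Its log2 signals were 7.74, 7.71 and 7.46 in wild-type control-diet replicates 1 to 3 and 7.70, 7.57 and 7.50 in the wild-type high-fat replicates. In knockout embryos they were 7.83, 7.83 and 7.46 under the control diet and 7.81, 7.47 and 7.61 under the high-fat diet. All 12 values lay between 7.46 and 7.83, with high and low embryos in both genotypes. The genotype difference was 0.05 ± 0.11 (SE; 95% interval −0.18 to 0.29), so the interval spans a 0.882-fold to a 1.22-fold level in knockout embryos.

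Lats2, the paralogue of Lats1, was not detected in any embryo. Its probe (ILMN_2771735) had raw signals of −12.9 to 0.5 and detection p-values of 0.414 to 0.970. Both Nf2 probes were equally dim, with raw signals of −12.2 to −3.5 (ILMN_1245990) and −9.3 to 5.2 (ILMN_2611840). No level or difference can be stated for either gene, since a probe that is not well above background bounds its transcript only from above.

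The co-activator Yap1 (ILMN_1248293) had raw signals of 976.4 to 1563.1 in the 12 embryos. Its log2 signals were 10.09, 10.16 and 9.83 in wild-type control-diet replicates 1 to 3 and 10.32, 10.28 and 10.04 in the wild-type high-fat replicates. In knockout embryos they were 10.16, 10.14 and 10.003 under the control diet and 10.42, 10.16 and 10.36 under the high-fat diet. Knockout embryos averaged 10.21 ± 0.16 and wild-type embryos 10.12 ± 0.18 (SD, n = 6), a difference of 0.09 ± 0.10 (SE; 95% interval −0.13 to 0.30; limma, adjusted p = 1.00). Thus the interval for Yap1 allows a level in knockout embryos between 0.915-fold and 1.23-fold of that in wild-type embryos.

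Wwtr1, the second co-activator, was read by 3 probes that did not show the same pattern. At its brightest probe (ILMN_2732998), log2 signals were 6.95, 6.73 and 6.19 in wild-type control-diet replicates 1 to 3 and 6.87, 7.12 and 6.85 in the wild-type high-fat replicates. They were 6.63, 6.53 and 6.66 in the knockout control-diet and 7.13, 7.01 and 6.41 in the knockout high-fat replicates. The genotype difference was −0.06 ± 0.15 (SE; 95% interval −0.40 to 0.28). ILMN_2732997 gave −0.10 ± 0.18 and ILMN_1219016 gave −0.06 ± 0.31, so none of the 3 differed by more than its standard error.

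At all 3 Wwtr1 probes the array sets differed by more than the genotypes or the diets did. At ILMN_1219016 the 6 arrays of set A read 5.94 to 6.34 and the 6 of set B 6.77 to 7.39, with no overlap. The mean was higher in set B by 1.02, a difference that 3.96% of tested probes equalled or exceeded in size. At ILMN_2732997 and ILMN_2732998 set B was instead lower, by 0.58 and 0.39. Of the 11 member probes, ILMN_1219016 was the one whose sets did not overlap (1 of 11, against 16.7% of all tested probes).

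**Figure D2:**
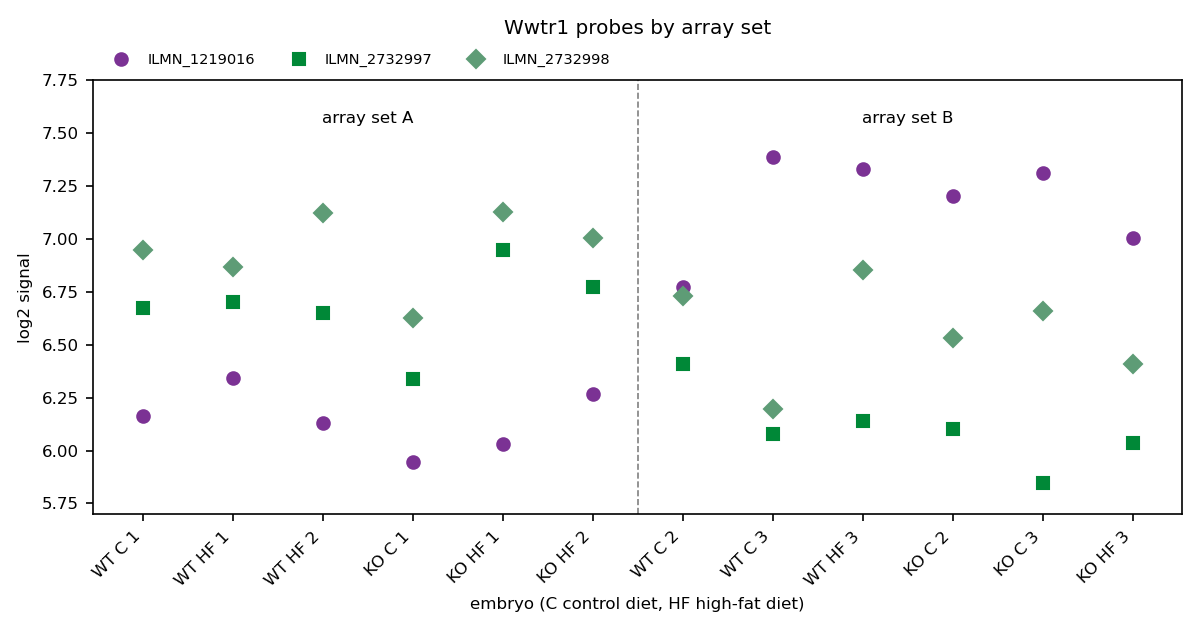
Log2 signal (y axis) of the 3 Wwtr1 probes in each of the 12 embryos (x axis), with the 6 arrays of set A left and the 6 of set B right of the dashed line. ILMN_1219016 spans 5.94 to 6.34 on the left and 6.77 to 7.39 on the right, whereas the other probes are on average lower in set B.

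Of the TEAD factors, through which the co-activators reach DNA, Tead2 varied least between embryos of a group. Its probe (ILMN_2653207) had log2 signals of 12.94, 13.00 and 12.75 in wild-type control-diet replicates 1 to 3 and 12.89, 13.11 and 12.82 in the wild-type high-fat replicates. In knockout embryos they were 12.88, 12.80 and 12.91 under the control diet and 13.14, 13.02 and 13.03 under the high-fat diet. The knockout high-fat embryos were all at or above 13.02, a level that 1 wild-type high-fat embryo also reached. Averaged over diets the genotype difference was 0.04 ± 0.09 (SE; 95% interval −0.15 to 0.24), the narrowest interval of the 11 probes.

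Tead1 was measured at 2 of its 3 probes. Its brighter probe (ILMN_1252402) read 10.59, 10.58 and 10.41 in wild-type control-diet replicates 1 to 3 and 10.25, 10.84 and 10.68 in the wild-type high-fat replicates. It read 10.48, 10.48 and 10.54 in knockout control-diet replicates and 10.66, 10.55 and 10.41 in the knockout high-fat replicates. Both the lowest and the highest embryo were thus wild type on the high-fat diet, and the genotype difference was −0.04 ± 0.11 (SE; 95% interval −0.27 to 0.20). The dimmer probe (ILMN_1218956) spread much more, from 7.73 in wild-type control-diet replicate 3 to 9.67 in replicate 2 of the same group. Its genotype difference of −0.08 had a standard error of 0.32, and it was 0.20 without wild-type control-diet replicate 2. The third Tead1 probe was not detected on any array.

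Tead4 was measured at 2 of its 4 probes. At the brighter one (ILMN_3157399), log2 signals were 7.99, 7.90 and 7.68 in wild-type control-diet replicates 1 to 3 and 8.19, 8.08 and 7.60 in the wild-type high-fat replicates. They were 8.11, 8.02 and 7.74 in the knockout control-diet and 8.19, 7.68 and 7.92 in the knockout high-fat replicates. The 4 groups overlapped, and the genotype difference was 0.03 ± 0.13 (SE; 95% interval −0.26 to 0.33). The dimmer probe (ILMN_2599986) gave −0.12 ± 0.17, with log2 signals of 5.78 to 6.72 in the 12 embryos.

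The genotype was also compared on each diet. On the control diet 0 of 11 member probes passed (background 0.0408% of tested probes), with differences of −0.29 to 0.15. On the high-fat diet 0 of 11 passed (background 0.0153% of tested probes), with differences of −0.39 to 0.12. The lowest value on the control diet was that of Wwtr1 ILMN_2732997 and the lowest on the high-fat diet that of Tead4 ILMN_2599986 (limma, unadjusted p = 0.122). Lats1 was detected in 3 of 3 knockout and 0 of 3 wild-type embryos under each diet. Its fitted difference, against undetected wild-type signals, was 1.33 ± 0.18 (SE) on the control diet and passed (limma, adjusted p = 0.0351). On the high-fat diet it was 1.17 ± 0.18 (SE) and did not pass (limma, adjusted p = 0.104). The change of the Lats1 difference with diet was −0.16 ± 0.26 (SE; limma, unadjusted p = 0.546), so a pass on 1 diet alone does not show that the diets differ. As above, the knockout arrays alone brought this probe into the fit.

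Maternal diet was the second factor. For the high-fat minus control difference averaged over genotypes, 0 of 11 member probes passed, as did 0% of all tested probes (limma, adjusted p under 0.05), although 2314 of the 19595 had an unadjusted p under 0.05, none of them a member. Member differences ran from −0.28 to 0.30, with 8 positive and 3 negative, and the median absolute difference was 0.12 at members and 0.14 over all tested probes. Yap1 had the lowest unadjusted p of the 11, 0.0652, with a difference of 0.20 ± 0.10 (SE; 95% interval −0.01 to 0.41; limma, adjusted p = 0.431). High-fat embryos read 10.04 to 10.42 and control-diet embryos 9.83 to 10.16 at Yap1, so the diets overlapped, as they did at all 11 member probes (0.475% of tested probes did not overlap). The Yap1 difference was 0.17 within array set A, 0.16 within set B and 0.17 ± 0.10 once the set was added as a block.

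Averaged over genotypes, the 3 Wwtr1 probes differed in sign for diet in the model without a block. ILMN_2732997 gave 0.30 ± 0.18, ILMN_2732998 0.28 ± 0.15 and ILMN_1219016 −0.28 ± 0.31 (SE). With the set as a block these became 0.12 ± 0.10, 0.17 ± 0.13 and 0.07 ± 0.13, and no member probe passed in either model (0% of tested probes with the block). ILMN_1219016 thus turned from negative to positive, with 0.14 within set A and −0.003 within set B. Signs still differed within set B, where ILMN_2732997 gave −0.02 and ILMN_2732998 0.10. With the block they also differed within a genotype. ILMN_1219016, ILMN_2732997 and ILMN_2732998 gave 0.18, −0.07 and 0.21 in wild-type embryos and −0.04, 0.31 and 0.13 in knockout embryos. High-fat arrays were more frequent in set A, so diet and set overlap in part.

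The lead probes of the other members did not pass for diet either. Sav1 gave −0.15 ± 0.10 (SE; 95% interval −0.36 to 0.06), with −0.11 within set A and −0.19 within set B. Tead2 gave 0.12 ± 0.09, Amotl2 −0.06 ± 0.11, and the brighter probes of Tead1 and Tead4 0.05 ± 0.11 and 0.04 ± 0.13. In wild-type embryos alone the 11 differences ran from −0.18 to 0.36 and in knockout embryos alone from −0.39 to 0.49, with 0 of 11 passing in each (background 0% in each), and 0 of 11 at an unadjusted p under 0.05.

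The interaction asked whether the genotype difference changed with diet. None of the 11 member probes passed, nor did any tested probe (0%), and 0 of 11 had an unadjusted p under 0.05, as 247 of all 19595 did. Tead4 ILMN_2599986 had the largest value, −0.54 ± 0.33 (SE; 95% interval −1.27 to 0.19; limma, unadjusted p = 0.131), but it was −1.26 within array set A and 0.28 within set B. Both values within a set rest in part on groups of 1 embryo. The brighter Tead4 probe gave −0.13 ± 0.27, Yap1 0.03 ± 0.20 and Sav1 0.06 ± 0.19. The interaction is a difference of differences, so its standard errors are larger than those of the averaged effects.

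**Figure D3:**
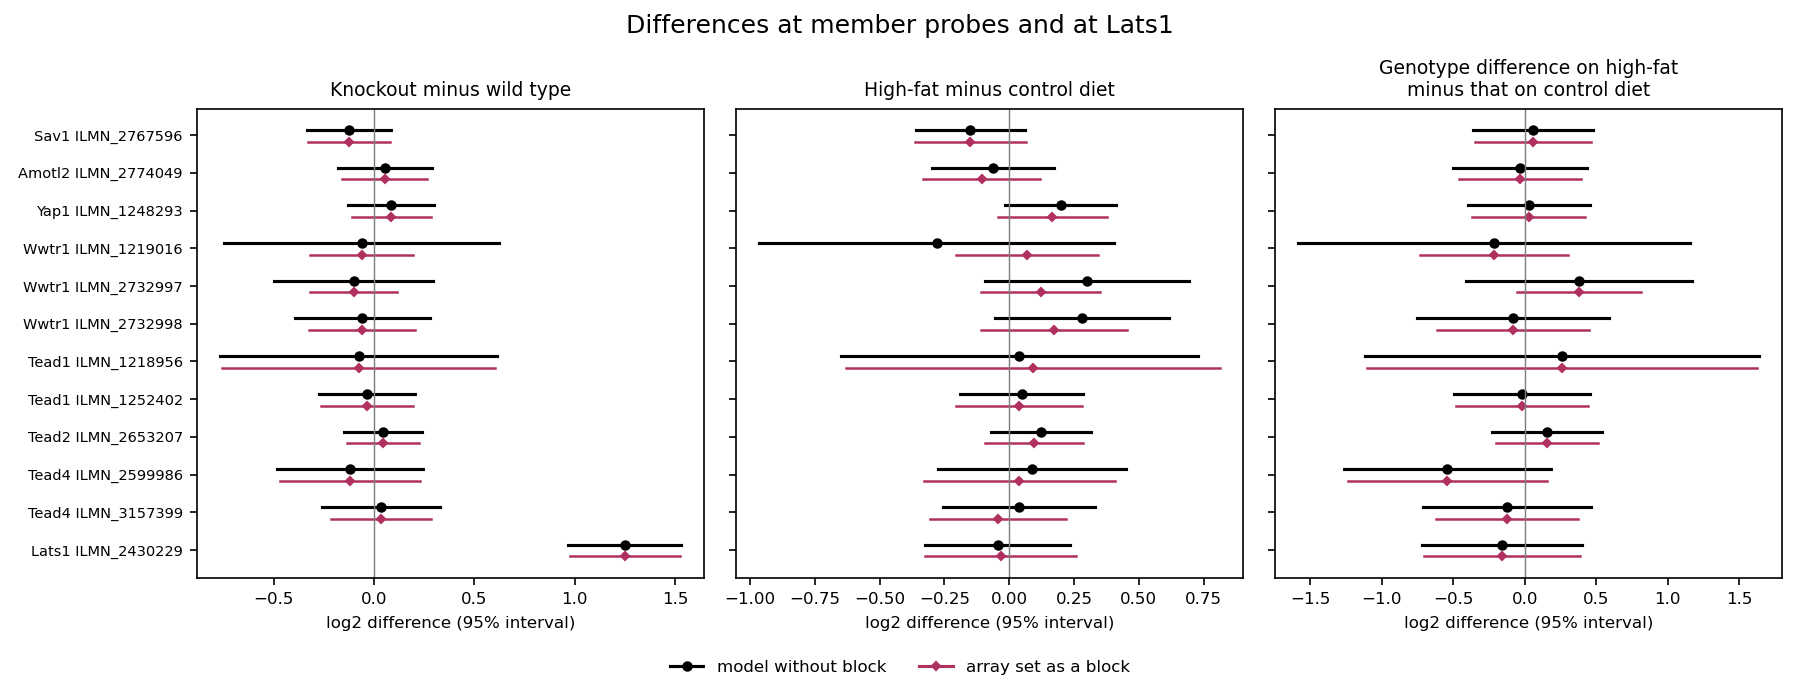
Log2 differences (x axis) with 95% intervals from limma for the 11 tested member probes and Lats1, for genotype, diet and their interaction. Black circles are the model without a block and red diamonds the model with the array set as a block; every member interval includes 0 in all 3 panels, and the Lats1 point in the genotype panel is fitted against wild-type signals that were not detected.

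Whether members varied with Lats1 was then examined among the 6 knockout embryos, since Lats1 was not detected in wild-type embryos. Pearson's r between a member probe and Lats1 ranged from −0.29 to 0.92 over 11 relations. The brighter Tead4 probe had the highest, r = 0.92 (exact permutation p = 0.00139, the smallest that 720 orders can give; Spearman's rho = 1.00, exact p = 0.00278), and adjusted over all 19594 other tested probes the p became 1.00 for r and 0.930 for rho. An r of that size or larger was found for 0.449% of tested probes. In array set A, Tead4 read 8.19, 8.11 and 7.68 where Lats1 read 6.23, 6.13 and 5.43, and in set B it read 8.02, 7.92 and 7.74 where Lats1 read 5.97, 5.91 and 5.84, so the order was the same within both sets, each too small for a test. Without the 2 embryos farthest from the median of Lats1, knockout high-fat replicates 1 and 2, r was 0.93 over 4 embryos. Over the same 4 embryos r went from 0.007 to 0.99 at Wwtr1 ILMN_2732997 and from −0.21 to −0.92 at ILMN_1219016. An r over 4 embryos is thus unstable and does not show that a relation holds.

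Amotl2 followed with r = 0.80 (exact permutation p = 0.0250; rho = 0.77, exact p = 0.103; adjusted p = 1.00 over all tested probes for r), a size that 2.75% of tested probes reached, and r was 0.85 without the same 2 embryos. The dimmer Tead4 probe gave r = 0.62 (exact permutation p = 0.182) and Yap1 r = 0.43 (exact permutation p = 0.390). Sav1 gave r = −0.29 (exact permutation p = 0.528). Over the 6 wild-type embryos, where Lats1 was not detected, r of the 11 member probes ran from −0.86 to 0.91, given without a test. It was −0.77 there for the brighter Tead4 probe, −0.79 for Amotl2 and −0.54 for Yap1, so r of a similar size also arose with Lats1 at background. None of the 11 relations in knockout embryos passed after adjustment over all tested probes, and neither did any of the other tested probes (0%). With 6 embryos the p for r cannot fall below 0.00139, so after this adjustment a probe could pass only if a great many others had a p as small. The absence of calls therefore does not show that members and Lats1 are unrelated. An unadjusted p under 0.05 for r was found for 2 of the 11 member probes, against 2.61% of all tested probes.

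**Figure D4:**
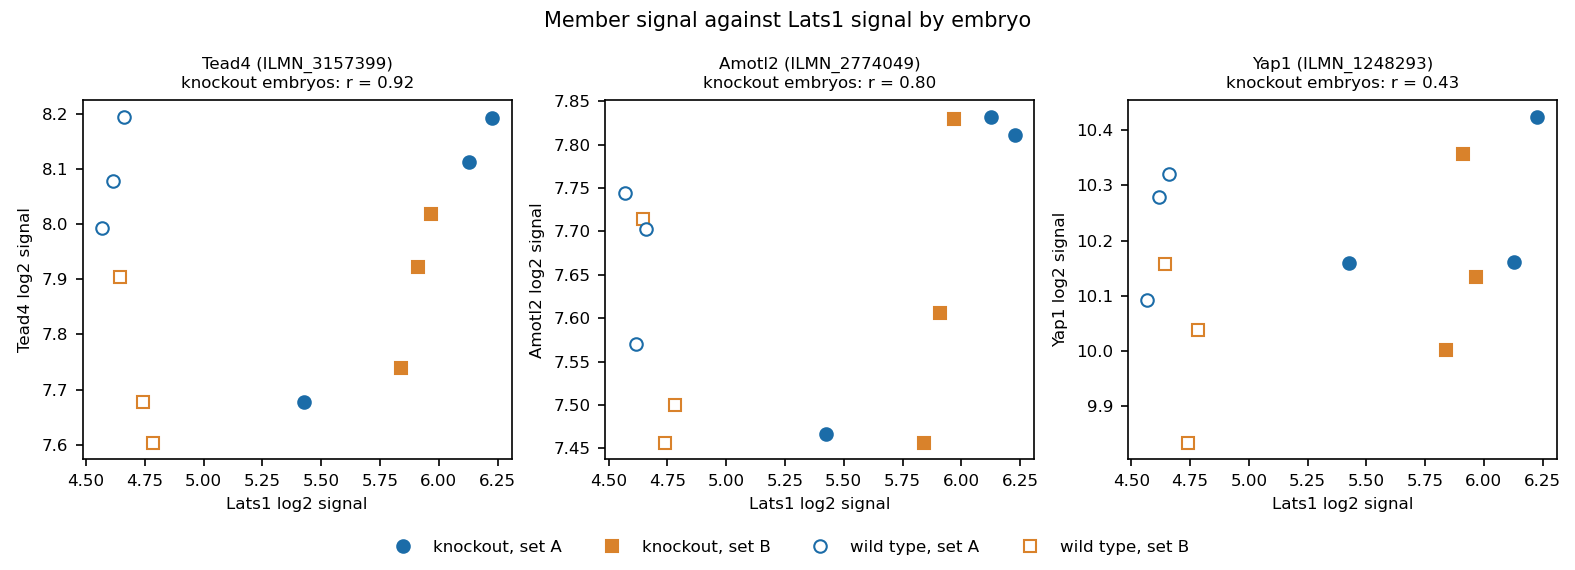
Log2 signal of the brighter Tead4 probe, Amotl2 and Yap1 (y axes) against Lats1 (x axes, ILMN_2430229) in 12 embryos; filled symbols are knockout and open symbols wild-type embryos, circles array set A and squares set B. Among the 6 knockout embryos r is 0.92, 0.80 and 0.43 in turn, and the wild-type embryos lie at Lats1 signals that were not detected.

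Other genes of the pathway were taken from a list of 43, of which 31 had a tested probe. Lats1 was the one gene called among them in any of the 7 comparisons, at the probe that the knockout arrays alone brought past the filter. It passed for genotype averaged over diets and on the control diet, where 0.0714% and 0.0408% of all tested probes passed. Beside Lats1, the lowest genotype differences were those of Vgll3, a TEAD cofactor, with −0.48 ± 0.20, the angiomotin-like gene Amotl1 with −0.12 ± 0.11 and the atypical cadherin gene Dchs1 with −0.09 ± 0.20 (SE; adjusted p = 1.00 for each in limma). The highest were Patj, a polarity scaffold, with 0.22 ± 0.19, the kinase gene Taok3 with 0.19 ± 0.14 and Frmd6, which encodes a FERM domain protein, with 0.11 ± 0.11 (adjusted p = 1.00 for each in limma). Over the 31 genes the median was 0.02, beside −0.0005 over all tested probes.

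For diet the same list gave no call. Ptpn14, a phosphatase that binds YAP1, gave 0.44 ± 0.20, Patj 0.42 ± 0.19 and the polarity gene Dlg5 0.30 ± 0.12. Slmap, a subunit of the phosphatase complex that opposes the STK3 kinase, gave −0.51 ± 0.30, Vgll3 −0.43 ± 0.20 and its relative Vgll2, detected on 4 of 12 arrays, −0.38 ± 0.18. Their adjusted p-values were 0.412 to 0.461 in limma. With the array set as a block Slmap fell to −0.18 and Patj to 0.24, whereas Vgll3 was at −0.56.

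Targets of YAP1 and WWTR1 were taken from a list of 20 genes besides Lats2 and Amotl2, of which 14 were tested and 0 passed in any comparison (limma). For genotype 8 were positive and 6 negative with a median of 0.01, and 1 had an unadjusted p under 0.05. That gene was Nt5e, an ectonucleotidase, with 0.49 ± 0.20 (limma, unadjusted p = 0.0316, adjusted p = 1.00). The matricellular gene Ccn1 gave 0.15 ± 0.16 and the secreted-protein gene Fjx1 0.15 ± 0.10. Lowest were the receptor kinase gene Axl with −0.25 ± 0.16, Rbms3 with −0.20 ± 0.30 and the muscle ankyrin gene Ankrd1 with −0.17 ± 0.24.

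For diet the target list had a median of −0.05, with 6 positive and 8 negative. Rbms3, an RNA-binding protein, gave −0.73 ± 0.30 and the growth factor gene Tgfb2 −0.57 ± 0.28 (limma, adjusted p = 0.413 and 0.429), which became −0.41 and −0.27 with the array set as a block. Ankrd1 gave −0.21 ± 0.24. Besides Ptpn14, which is on both lists, the highest were Nt5e with 0.29 ± 0.20 and Fjx1 with 0.11 ± 0.10.

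Over the 12 embryos, the named genes whose lead probe followed Yap1 most closely among 10763 were Apbb2 (r = 0.97), Golga3 (r = 0.95) and Dhx38 (r = 0.95), given as descriptions with no test. Within sets A and B these were 0.95 and 0.97 for Apbb2, 0.82 and 1.00 for Golga3, and 0.84 and 0.98 for Dhx38. Among the members, Tead2 (r = 0.75) and the brighter Tead4 probe (r = 0.73) came nearest to Yap1, while Sav1 (r = −0.52) and Wwtr1 ILMN_1219016 (r = −0.60) ran the other way. All 12 points share the same arrays and normalization.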

How the data were processed

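Transcripts were measured on 12 one-colour Illumina bead arrays, 1 embryo each. Average signals, deposited as a linear bead intensity that dips below 0 at dim probes, came out of BeadStudio 3.2.6 according to the submitters' processing notes. A deposited detection p-value sets each probe against negative control beads. Single-array tables were deposited with a detection score that is a fraction, beside the bead standard deviation (an intensity) and the bead number per the file headers. The authors' deposited processed table holds log2 values, in the same rank order as each array's signal, with column medians of 4.97 to 5.03, by a normalization that no source used here gives. Unmapped columns numbered 0.

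Signals were corrected and quantile-normalized with neqc (limma 3.58.1, R 4.3.3, offset 16). A probe was kept if 3 or more arrays detected it (p-value below 0.01), and the 19595 kept probes entered 1 limma fit with a mean per group (lmFit, eBayes), and p-values were adjusted by Benjamini-Hochberg over all of them, with a threshold of 0.05. The fit was also run on simulated log2 values with known changes. Their noise was independent between arrays, with no array-set effect and no detection floor, so that run is no check on either. Arrays were split into sets where a gap was largest in the median bead coefficient of variation among probes with a signal above 500; values within a set average the group means in it. Relations to Lats1 were adjusted over all tested probes, not over the members as first planned.

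Probe symbols came from the platform annotation (1 symbol for 34885 probes, several for 18, none for 10378), and 34807 gene IDs matched the RefSeq table of GRCm38.p6. Every member probe is described, a gene being led by its brightest tested probe. From the pathway and target lists, genes that passed and the 3 highest and 3 lowest in the averaged effects are named, besides Lats1 and Cited2. Members and lists were chosen with earlier results of these data known. Nothing states whether embryos came from separate litters, so p-values measure the spread between these samples. The number of arrays limits the precision.

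Each number in the sample titles is shared by a knockout and a wild-type embryo of one diet. Deviations from the group means correlated above 0.1 in 2 of 6 such pairs (range −0.53 to 0.37). Those 2 pairs had both arrays in the same array set (0.20 and 0.37), and the pairs across sets were all negative (−0.53 to −0.12). For the replicate numbers of the sample descriptions, 13 of 18 pairs correlated above 0.1 (−0.26 to 0.68). Every replicate 1 lay in set A and every replicate 3 in set B. Numbering and array set are thus mixed, so these correlations cannot decide whether either numbering pairs the samples.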

Additional observations from a re-analysis of the deposited data

How the results depend on the processing

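The count of member probes that passed stayed at 0 in all 7 comparisons under every setting tried but array weights. For genotype averaged over diets the lowest adjusted p of a member under any setting, array weights included, was 0.368. With array weights 3 member probes passed for diet, namely Wwtr1 ILMN_1219016 at −0.65, ILMN_2732997 at 0.45 and ILMN_2732998 at 0.40 (adjusted p = 0.0333, 0.0163 and 0.0163), and 1 passed for genotype on the high-fat diet, Tead4 ILMN_2599986 at −0.66 (adjusted p = 0.0217). The same weights called 31.3% and 6.76% of all tested probes in these comparisons, and with the array set added as a block, an alternative chosen after seeing the data, 0 member probes passed in either. The replicate block left 0 member probes passing, both by title number, for which diet cannot be estimated, and by description number, where 1.72% of all tested probes (338) passed for diet against 0 without it. Neither numbering was taken to pair the samples in the main fit, although the correlations between arrays could not decide this, since numbering and array set are mixed. By title number Lats1 had an adjusted p of 0.0673. For the averaged genotype effect, 20 of 242 member values changed sign, none of them called, and for diet 21 of 231. Leaving out 1 embryo at a time gave 0 in every comparison. The relation to Lats1 gave 0 calls with the authors' table too, where r for Tead4 was 0.93 (exact permutation p = 0.0125). The small number of knockout embryos made a call nearly impossible there as well. Probes near the detection limit, such as those of Lats2 and Nf2, give no difference at any setting.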

Other observations

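Member probes differed in how much embryos of a group varied. Ranked by the within-group SD over all tested probes, Tead2 lay at percentile 4.84, Sav1 at 10.97, Yap1 at 12.4 and Amotl2 at 22.3, so these probes were among the more even ones. The ranking did not match probes for brightness, whose part in it was not tested. Wwtr1 ILMN_1219016 and Tead1 ILMN_1218956 lay at 95.6 each. The Wwtr1 SD was 0.64 over groups that each span both array sets, while Tead1 ILMN_1218956 had a set difference of 0.13 beside an SD of 0.64.

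Probes of the same gene followed each other to different degrees, given as descriptions over 12 arrays. Wwtr1 ILMN_2732997 and ILMN_2732998 correlated at r = 0.79, and ILMN_1219016 correlated with them at r = −0.85 and −0.68. Within array set A those last relations were 0.37 and 0.24, and within set B −0.68 and −0.22. The tested Tead1 probes correlated at r = 0.64, with 0.89 within set A and 0.69 within set B. The tested Tead4 probes gave r = 0.50, with 0.71 in set A and −0.07 in set B.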
